A study of Homo sapiens with 3 samples.

Results

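The human mitochondrial genome is a small circular chromosome that encodes 37 genes: 13 mRNAs for subunits of the respiratory chain, 2 rRNAs of the mitochondrial ribosome and 22 tRNAs. They were taken here as all rows assigned to chromosome M, which gave 37 of the 60609 genes in each count table. RNA was sequenced from NCI-H209 cells, a long-established line from a human small cell lung cancer with neuroendocrine traits. The 3 libraries were sh1362 and sh490, each with a different inducible hairpin RNA against YES1, a Src-family tyrosine kinase, and shGFP, a control hairpin against GFP, a gene that human cells lack. All of them, the control included, were infected with the lentiviral Tet-pLKO-puro vector and received doxycycline, which turns the hairpin on, at 1 µg/mL every 2 days. The RNA was polyadenylated RNA. No source used here gives the hairpin sequences, the time of harvest or the number of independent infections. Each hairpin had 1 library, so a difference between libraries has no replicate check and is given with a counting interval only.

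In the cell, both strands of this genome are transcribed as long precursors that carry many genes each. The tRNAs lie between most of the other genes, and cutting them out releases the mRNAs and rRNAs, which makes the tRNAs the punctuation marks of the precursor. Most mitochondrial mRNAs then receive a short poly(A) tail, and for some of them the tail supplies the missing letters of the stop codon. One long transcript carries both rRNAs and nearly all mRNAs, while MT-ND6 is the single mRNA made from the opposite strand. The proteins belong to complex I (the MT-ND genes), complex III (MT-CYB), complex IV (MT-CO1 to MT-CO3) and complex V, the ATP synthase (MT-ATP6 and MT-ATP8). All proteins that copy, cut, stabilise and translate these RNAs are encoded in the nucleus.

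YES1 itself had 216 reads in sh1362, 163 in sh490 and 1465 in shGFP. The log2 fold was -3.36 in sh1362 and -3.86 in sh490, so the labels of both YES1 hairpins fit the level of their target. The libraries held 7421552 counted reads (sh1362), 7791747 (sh490) and 4899006 (shGFP). All 6 neuroendocrine markers read, INSM1, CHGA and SYP among them, were detected in each library, with summed levels of 946 CPM in sh1362, 601 CPM in sh490 and 543 CPM in shGFP (CPM, reads scaled to library size with TMM in edgeR). The 3 globin genes summed to 20.3 CPM in sh1362, 18.5 CPM in sh490 and 732 CPM in shGFP, so the control library held far more erythroid transcripts than the other libraries. The 7 leukocyte markers read summed to 22, 16 and 36 reads in sh1362, sh490 and shGFP, or 2.98, 2.02 and 7.44 CPM. CD3E and ITGAM were at 0 in all of them. S100A9 (0, 1 and 20 reads) and S100A8 (0, 0 and 5) had most of their reads in the control library, as the globins did. LYZ (9, 1 and 3) and CD14 (10, 14 and 6) did not, and PTPRC had 3, 0 and 2. In the same order of libraries, 5 fibroblast markers summed to 50, 74 and 36 reads, with DCN at 0 throughout, and 4 endothelial markers to 40, 92 and 96.

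The letters at the ends of the mRNAs show which messages depend on the poly(A) tail for their stop codon. In the lines below, the last 21 bases of each annotated gene are given 5′ to 3′ on its own strand (GENCODE version 29 transcripts, GRCh38), and the capitals mark the last, complete or incomplete, codon. MT-ND1, MT-ND2, MT-CO3, MT-ND3, MT-ND4 and MT-CYB stop after 1 or 2 letters of it. MT-CO1 ends in AGA and MT-ND5 in a complete TAA, and these lines stand for the 7 genes with all 3 letters.
MT-ND1 3′ end, chrM:4242-4262 (+): cagcattccccctcaaaccTA
MT-ND2 3′ end, chrM:5491-5511 (+): cttttatactaataatcttaT
MT-CO3 3′ end, chrM:9970-9990 (+): ccatctattgatgagggtctT
MT-ND3 3′ end, chrM:10384-10404 (+): aaggattagactgaaccgaaT
MT-ND4 3′ end, chrM:12117-12137 (+): tcattaccgggttttcctctT
MT-CYB 3′ end, chrM:15867-15887 (+): acaaaatactcaaatgggccT
MT-CO1 3′ end, chrM:7425-7445 (+): cccgtatacataaaatctAGA
MT-ND5 3′ end, chrM:14128-14148 (+): accctactcctaatcacaTAA

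Apart from 1 base shared by MT-ATP6 and MT-CO3, mRNA genes overlap in 2 places, where 1 message carries a pair of proteins. MT-ATP8 and MT-ATP6 share 46 bases, printed from the start codon of MT-ATP6 to the stop codon of MT-ATP8, both in capitals. MT-ND4L and MT-ND4 share 7 bases, in capitals below with 13 bases on either side. Reads that touched both genes of such a pair were left out by the counting, so each count comes from the stretches outside the overlap.
MT-ATP8 and MT-ATP6 overlap, chrM:8527-8572 (+): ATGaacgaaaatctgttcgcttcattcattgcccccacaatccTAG
MT-ND4L and MT-ND4 overlap, chrM:10747-10779 (+): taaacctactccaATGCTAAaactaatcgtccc

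The mitochondrial genes together took a larger share of the reads in sh1362. They had 577547 reads in sh1362, 428463 in sh490 and 268003 in shGFP, which was 7.78% of all counted reads in sh1362 (95% interval 7.76 to 7.80), 5.50% in sh490 (5.48 to 5.51) and 5.47% in shGFP (5.45 to 5.49). The share in sh1362 was 1.42 times that in shGFP and 1.42 times that in sh490. Between sh490 and shGFP the ratio was 1.005. YES1 itself was at 29.2 CPM in sh1362, 20.6 CPM in sh490 and 303 CPM in shGFP. Intervals here and below are exact binomial, or conditional binomial for ratios, and cover counting error only, since PCR copies of a molecule cannot be recognised here. A share of reads cannot tell more mitochondrial RNA per cell from less RNA of nuclear genes per cell. With the globin reads left out of the totals, the log2 ratio of sh1362 to shGFP was 0.51, the same as with them to 2 decimals.

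**Figure D1:**
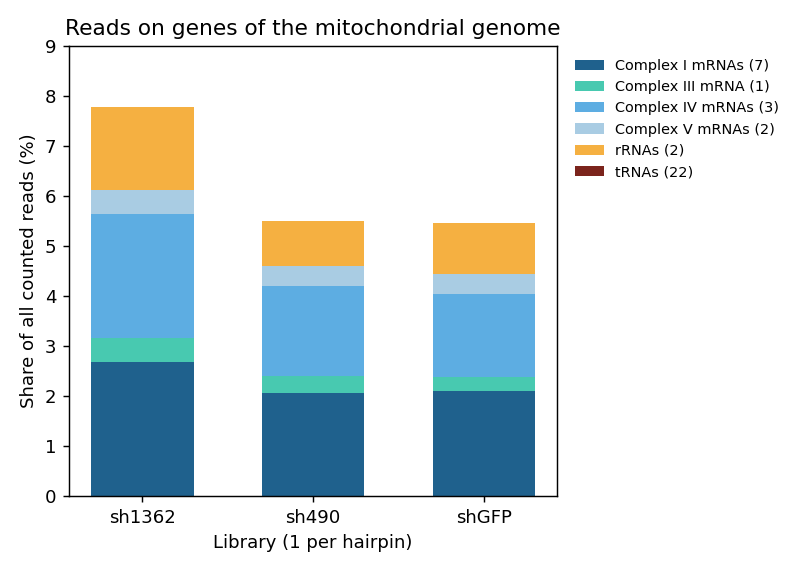
Share of all counted reads (%) that fell on genes of the mitochondrial genome, for 1 library per hairpin, stacked by respiratory complex, rRNA and tRNA. The sh1362 bar reaches 7.78%, against 5.50% in sh490 and 5.47% in shGFP, and the tRNA part is too thin to see.

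By class of RNA, mRNAs made up most of the reads and most of the difference. The 13 mRNAs took 6.13% of all reads in sh1362, 4.61% in sh490 and 4.45% in shGFP. The 2 rRNAs took 1.64% in sh1362, 0.880% in sh490 and 1.02% in shGFP. The 22 tRNA genes together had 757 reads in sh1362, 554 in sh490 and 337 in shGFP. Of the 2.31 percentage points by which the share in sh1362 lay above that in shGFP, mRNAs accounted for 72.8%, rRNAs for 27.1% and tRNAs for 0.144%. MT-RNR2 with 26.6%, MT-CO1 with 24.0% and MT-ND4 with 10.9% carried 61.5% of it together. Set against sh490, the difference was 2.28 percentage points, and the same genes carried 66.1%, with MT-RNR2 at 32.4%.

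Per gene, edgeR's quasi-likelihood test of both YES1 hairpins against shGFP called no mitochondrial gene. It tested 15708 genes and called 0.00% of them higher and 0.0255% lower (Benjamini-Hochberg adjusted p, threshold 0.05), the lower ones being YES1, HBB, HBA1 and HBA2 (HBA1 and HBA2 are near-identical, so the split of their reads is uncertain). Of the 37 mitochondrial genes, 25 entered that test (13 mRNAs, 2 rRNAs and 10 tRNAs) with adjusted p from 0.986 to 0.999. At an unadjusted p under 0.05 there were 0 of the 25, beside 357 higher and 327 lower of the 15708 genes tested. That share of all genes is small, so 0 of 25 lies near it. DESeq2, limma-voom and 3 other settings of edgeR also called 0. MT-CYB had the lowest unadjusted p of the mRNAs, with an edgeR log2 fold of 0.47 (SE 0.32, adjusted p 0.986, higher in both libraries). The fit rests on 1 residual degree of freedom, and the difference between the hairpins enters it as spread.

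The next values describe single libraries, as log2 folds of TMM-scaled counts. The median over the 13 mRNAs was 0.31 for sh1362 over shGFP, 0.34 for sh1362 over sh490 and -0.020 for sh490 over shGFP. The same medians over the 11634 genes with a mean of at least 5 CPM were -0.0086, -0.017 and 0.0012. All 13 mRNAs were above 0 in sh1362 against each of the other libraries, and 6 of 13 were in sh490 against shGFP. Of the 11634 genes, 5727 were above 0 in sh1362 over shGFP, 5620 in sh1362 over sh490 and 5831 in sh490 over shGFP. The 13 mRNAs largely share a precursor and are not 13 independent observations. At least 1.2-fold higher were 7 of 13 in sh1362 over shGFP, beside 28.2% of all genes, and 8 of 13 in sh1362 over sh490, beside 24.1%. In sh490 over shGFP 0 of 13 reached that size, beside 22.6%. None of the 13 was 2-fold higher or lower in any comparison. Among all genes, 3.29% were at least 2-fold higher and 6.0% (698 genes) lower in sh1362 over shGFP, 2.02% higher and 3.88% lower in sh1362 over sh490, and 1.40% higher and 1.42% lower in sh490 over shGFP. The comparisons share libraries and are not independent of each other.

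**Figure D2:**
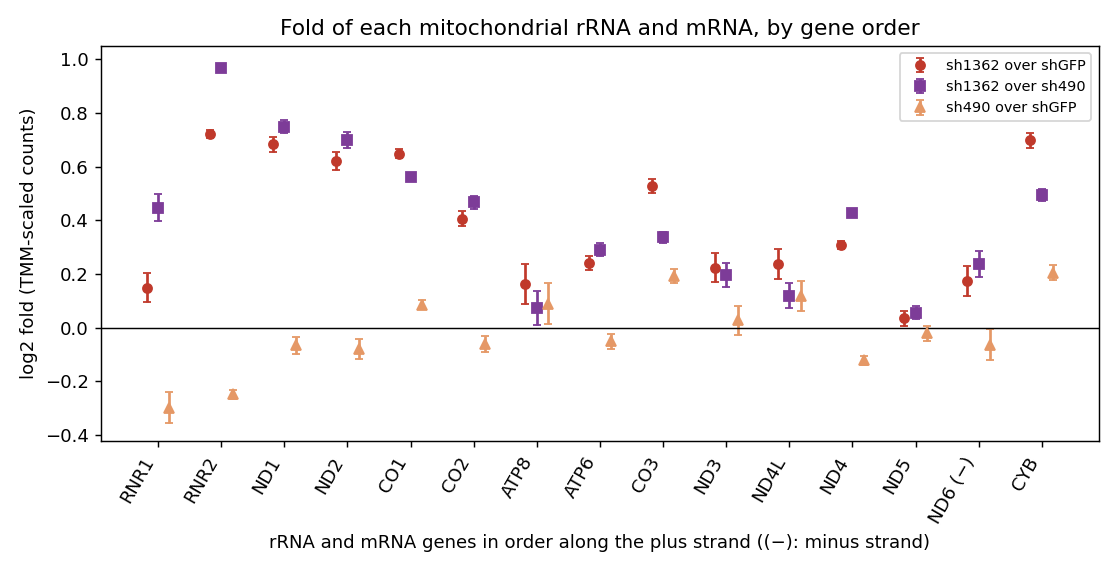
Log2 fold of each mitochondrial rRNA and mRNA (y axis, TMM-scaled counts) in gene order (x axis) for sh1362 over shGFP, sh1362 over sh490 and sh490 over shGFP, with 1 library each. Bars are 95% counting intervals. In sh1362 the folds are high from MT-RNR2 to MT-CO1, lowest at MT-ND5 (0.035 over shGFP) and high again at MT-CYB (0.70), while sh490 over shGFP stays between -0.30 and 0.21.

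The rRNAs head the long transcript and behaved unlike each other. MT-RNR2, the large-subunit (16S) rRNA at chrM:1671-3229, had 15542 CPM (114797 reads) in sh1362, 7942 CPM (62974 reads) in sh490 and 9432 CPM (45628 reads) in shGFP. Its log2 fold in sh1362 was 0.72 over shGFP (0.70 to 0.74) and 0.97 over sh490 (0.95 to 0.98), the highest of the 15 rRNAs and mRNAs in both comparisons. It was lower in sh490 than in shGFP, at -0.25 (-0.27 to -0.23). MT-RNR1, the small-subunit (12S) rRNA at chrM:648-1601, had 967 CPM (7139 reads) in sh1362, 709 CPM (5620 reads) in sh490 and 872 CPM (4216 reads) in shGFP. Its log2 fold in sh1362 was 0.15 over shGFP (0.094 to 0.20) and 0.45 over sh490 (0.40 to 0.50), and in sh490 it was -0.30 (-0.36 to -0.24) against shGFP. The ratio of MT-RNR2 to MT-RNR1 per kilobase was highest in sh1362, at 9.84 in sh1362, 6.86 in sh490 and 6.62 in shGFP. The interval of the log2 ratio of these ratios excluded 0 for sh1362 over shGFP (0.57, 0.51 to 0.63) and did not for sh490 over shGFP (0.050, -0.010 to 0.11). Both rRNAs carry only short or no tails in the cell, so a library of polyadenylated RNA holds an unknown part of them.

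Complex I, NADH dehydrogenase, has 7 of the 13 mRNAs, and they spanned nearly the whole range of folds. As a sum they took 2.69% of reads in sh1362, 2.06% in sh490 and 2.10% in shGFP, a ratio of 1.28 between the shares of sh1362 and shGFP. MT-ND1 and MT-ND2, membrane-arm subunits and the first mRNAs of the transcript, were the complex I genes that stood highest in sh1362. MT-ND1 (chrM:3307-4262) had 4686 CPM (34613 reads) in sh1362, 2788 CPM (22102 reads) in sh490 and 2917 CPM (14112 reads) in shGFP, a log2 fold in sh1362 of 0.68 over shGFP (0.66 to 0.71) and 0.75 over sh490 (0.73 to 0.77). For MT-ND2 (chrM:4470-5511) the levels were 3034 CPM (22410 reads) in sh1362, 1868 CPM (14812 reads) in sh490 and 1973 CPM (9543 reads) in shGFP, and the log2 fold in sh1362 was 0.62 over shGFP (0.59 to 0.66) and 0.70 over sh490 (0.67 to 0.73). The levels of both genes in sh490 lay slightly below those in shGFP, at -0.066 and -0.079.

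The complex I genes farther along the genome had smaller folds of sh1362 over the other libraries. MT-ND3 (chrM:10059-10404) had 1098 CPM (8108 reads) in sh1362, 958 CPM (7595 reads) in sh490 and 939.7 CPM (4546 reads) in shGFP. MT-ND4L (chrM:10470-10766) had 1009 CPM (7453 reads) in sh1362, 929 CPM (7362 reads) in sh490 and 856 CPM (4139 reads) in shGFP. MT-ND4 (chrM:10760-12137), another membrane-arm subunit and the complex I message with the highest level per length, had 12753 CPM (94193 reads) in sh1362, 9473 CPM (75110 reads) in sh490 and 10308 CPM (49864 reads) in shGFP. These genes were higher in sh1362 too, by less over shGFP than MT-ND1 and MT-ND2. Their log2 folds for sh1362 over shGFP were 0.22, 0.24 and 0.31, and those over sh490 were 0.20, 0.12 and 0.43. For sh490 over shGFP they were 0.028, 0.12 and -0.12, the last 2 farther from 0 than those of MT-ND1 and MT-ND2. MT-ND5 (chrM:12337-14148), which encodes the largest membrane-arm subunit, was nearly level across the libraries, with 3495 CPM (25815 reads) in sh1362, 3362 CPM (26660 reads) in sh490 and 3410.3 CPM (16497 reads) in shGFP. Its log2 fold in sh1362 was 0.035 over shGFP (0.0072 to 0.064) and 0.056 over sh490 (0.031 to 0.081), the lowest of the 15. MT-ND6 (chrM:14149-14673, minus strand) had 968 CPM (7148 reads) in sh1362, 821 CPM (6507 reads) in sh490 and 857 CPM (4146 reads) in shGFP, and its log2 fold in sh1362 was 0.18 over shGFP (0.12 to 0.23) and 0.24 over sh490 (0.19 to 0.29). MT-ND5 and MT-ND6 end at neighbouring bases on opposite strands, and the counting did not use strand, so antisense reads over either gene were counted with its own sense reads. Their log2 folds for sh490 over shGFP were -0.020 for MT-ND5 and -0.063 for MT-ND6.

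Complex III and complex IV had the larger folds as groups, more clearly over shGFP than over sh490. For sh1362 over sh490 the ratios of shares were 1.38 for complex III and 1.38 for complex IV. Those of complex I and complex V were 1.31 and 1.18. MT-CYB (chrM:14747-15887), cytochrome b and the single complex III subunit of this genome, had 4741 CPM (35016 reads) in sh1362, 3368 CPM (26705 reads) in sh490 and 2921 CPM (14130 reads) in shGFP. It was higher in sh1362, at 0.70 over shGFP (0.67 to 0.73) and 0.49 over sh490 (0.47 to 0.52), and was also the mRNA farthest above shGFP in sh490, at 0.21 (0.18 to 0.24). The 3 complex IV mRNAs, for the catalytic core of cytochrome c oxidase, took 2.48% of reads in sh1362, 1.80% in sh490 and 1.65% in shGFP, a ratio of 1.504 between sh1362 and shGFP. Each of them was highest in sh1362. MT-CO1 (chrM:5904-7445), the subunit that binds the heme groups, had 15199.6 CPM (112265 reads) in sh1362, 10289.9 CPM (81586 reads) in sh490 and 9697 CPM (46907 reads) in shGFP. MT-CO2 (chrM:7586-8269), which takes electrons from cytochrome c, had 4282 CPM (31624 reads) in sh1362, 3097 CPM (24557 reads) in sh490 and 3229.6 CPM (15623 reads) in shGFP. MT-CO3 (chrM:9207-9990) had 5484 CPM (40504 reads) in sh1362, 4344 CPM (34439 reads) in sh490 and 3802 CPM (18394 reads) in shGFP. All 3 were at least 1.2-fold higher in sh1362 than in either other library, with log2 folds over shGFP of 0.65 for MT-CO1, 0.41 for MT-CO2 and 0.53 for MT-CO3. In sh490 the same folds were 0.086, -0.060 and 0.19.

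The complex V pair, on 1 message, had the smallest ratio of the complexes. MT-ATP8 (chrM:8366-8572) had 521 CPM (3850 reads) in sh1362, 496 CPM (3929 reads) in sh490 and 466 CPM (2253 reads) in shGFP. MT-ATP6 (chrM:8527-9207), the subunit of the proton channel, had 4313 CPM (31855 reads) in sh1362, 3525 CPM (27951 reads) in sh490 and 3652 CPM (17668 reads) in shGFP. The ratio of the summed shares of sh1362 and shGFP was 1.18, below the 1.28 of complex I, 1.64 of complex III and 1.504 of complex IV. MT-ATP8 and MT-ATP6 share a message, and their log2 folds in sh1362 over shGFP were 0.16 and 0.24, with a difference between them of 0.077 (-0.0022 to 0.16). Over sh490 that difference was 0.22 (0.15 to 0.29), so genes on the same message differed by that much beyond counting error. For MT-ND4 and MT-ND4L, the other such pair, it was 0.31 (0.26 to 0.36) over sh490 and 0.069 (0.012 to 0.13) over shGFP.

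Per kilobase of gene, the order of the levels was much the same in every library, with changes at the top. The full gene length was used, although reads matching several places or genes were dropped, by an amount that differs between genes. MT-CO1 lies in the stretch from MT-ND1 to MT-CO3 that has a copy on chromosome 1, and MT-ND4 lies outside that stretch. The part of this in the order was not tested. In sh1362, MT-RNR2 with 9969 and MT-CO1 with 9857 CPM per kilobase led, with overlapping counting intervals, and MT-ND4 was the third with 9255. In sh490, MT-ND4 led with 6875, ahead of MT-CO1 with 6673 and MT-CO3 with 5540.2. It also led in shGFP with 7480.3, ahead of MT-CO1 with 6288 and MT-RNR2 with 6050.2. At the lower end, MT-RNR1 was last in all 3 libraries (1013 in sh1362, 743 in sh490 and 914 in shGFP) and MT-ND6 was next to last. MT-ND5 came before it in sh1362 and shGFP, and MT-ND2 did in sh490. Counting intervals of neighbours in the order also overlapped for MT-ATP6 and MT-CO2 in sh1362, for MT-ATP6 and MT-RNR2 and for MT-CYB and MT-ND1 in sh490, and for MT-CO3 and MT-CO2, MT-ND4L and MT-ND3, and MT-ND2 and MT-ND5 in shGFP. Genes of the plus strand share a precursor. In shGFP their mRNAs spanned from 1882 (MT-ND5) to 7480.3 (MT-ND4) CPM per kilobase. The rRNA MT-RNR1, of which these libraries hold an unknown part, had 914.

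**Figure D3:**
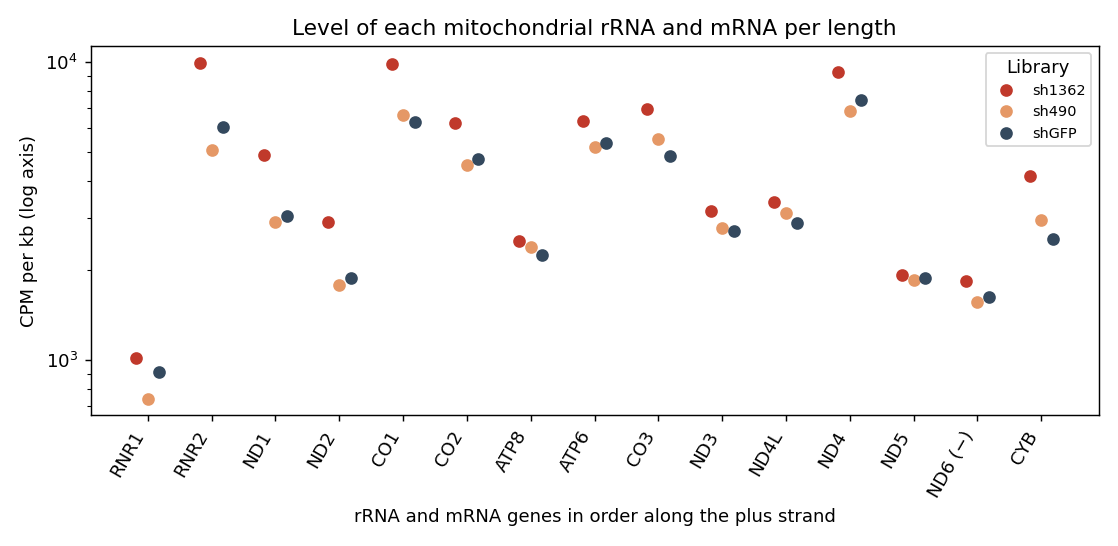
Level of each mitochondrial rRNA and mRNA in CPM per kilobase of gene (y axis, log scale) by gene order (x axis), 1 point per library. MT-RNR1 is lowest and MT-RNR2, MT-CO1 and MT-ND4 are highest in sh1362, between 9255 and 9969, while the 3 points of MT-ND5 nearly coincide.

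Along the gene order, the folds of sh1362 were uneven, with no steady decline. Over shGFP, MT-RNR1 at the head of the order had 0.15, and the next genes had 0.72 for MT-RNR2, 0.68 for MT-ND1, 0.62 for MT-ND2 and 0.65 for MT-CO1. Then came 0.41 for MT-CO2, 0.16 for MT-ATP8, 0.24 for MT-ATP6 and 0.53 for MT-CO3. The later genes had 0.22 for MT-ND3, 0.24 for MT-ND4L, 0.31 for MT-ND4, 0.035 for MT-ND5, 0.18 for MT-ND6 and 0.70 for MT-CYB. From MT-RNR2 to MT-CO1 every fold was above those of the genes from MT-CO2 to MT-ND6, and MT-CYB, the last, stood among the highest. The ratio of MT-ND1 to MT-ND5 per kilobase was 2.54 in sh1362, 1.57 in sh490 and 1.62 in shGFP. That of MT-CYB to MT-ND5 was 2.15 in sh1362, 1.59 in sh490 and 1.36 in shGFP. As a description across genes of the same libraries, Pearson's r between gene start and log2 fold over the 13 mRNAs was -0.46 for sh1362 over shGFP, -0.60 for sh1362 over sh490 and 0.29 for sh490 over shGFP. Over the 12 plus-strand mRNAs it was -0.40 for sh1362 over shGFP, -0.59 for sh1362 over sh490 and 0.44 for sh490 over shGFP. GC content also ran with the fold, with r of 0.63 over the 13 mRNAs for sh1362 over shGFP, and over 10949 nuclear genes the same r was 0.055. The 3905 nuclear genes within the GC range of the mitochondrial mRNAs had a median log2 fold of -0.030 for sh1362 over shGFP. Genes on 1 chromosome and in 1 precursor are not independent, and the part of GC content or position in the folds was not tested.

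Grouped by the ends printed above, the 6 mRNAs with an incomplete stop codon had a median log2 fold of 0.57 for sh1362 over shGFP (range 0.22 to 0.70). The 7 with all 3 letters had 0.24 (range 0.035 to 0.65). For sh1362 over sh490 the medians were 0.46 and 0.24, and for sh490 over shGFP they were -0.019 and -0.020. The ranges overlapped in every comparison, and MT-CO1, with a complete last codon, had a higher fold over shGFP than MT-ND2, MT-CO3, MT-ND3 and MT-ND4 without one.

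By annotated strand, the difference lay mainly on the plus-strand genes. The counting did not use strand, so reads on minus-strand genes may come from the plus-strand precursor. The comparison is therefore of annotated genes, not of the strands of the RNA. The 28 plus-strand genes took 7.68% of reads in sh1362, 5.41% in sh490 and 5.38% in shGFP, a ratio of 1.43 (1.42 to 1.43) between sh1362 and shGFP. The 9 minus-strand genes, MT-ND6 and 8 tRNAs, had 7635 reads in sh1362, 6925 in sh490 and 4388 in shGFP, a ratio of shares of 1.15 (1.11 to 1.19). MT-ND6 supplied nearly all of these reads. The level of MT-CO1 per kilobase was 5.35 times that of MT-ND6 in sh1362, 4.27 times in sh490 and 3.85 times in shGFP. How much of the MT-ND6 message a library of polyadenylated RNA holds is not known here. MT-ND5, a plus-strand gene, differed less than MT-ND6 did, so annotated strand did not separate the folds gene by gene.

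The tRNA genes held few reads. They are short, and a read that also touched a neighbouring gene was left out by the counting. Counts were above 0 in every library for 12 of the 22, and 6 (MT-TQ, MT-TA, MT-TN, MT-TS1, MT-TK and MT-TR) were at 0 in all 3. A count of 0 allows up to 3 reads, or 0.406 CPM in sh1362, 0.378 CPM in sh490 and 0.620 CPM in shGFP. MT-TY, the tRNA for tyrosine on the minus strand, had the most reads, 280 in sh1362, 213 in sh490 and 142 in shGFP. It is separated from MT-CO1 by 12 bases that belong to no gene. MT-TC, the tRNA for cysteine, lies on the other side of MT-TY, shares 1 base with it and has a gap of 31 bases to MT-TN. Its counts were 74 in sh1362, 75 in sh490 and 33 in shGFP. MT-TP, the proline tRNA and the last gene of the map, had 121 reads in sh1362, 120 in sh490 and 65 in shGFP. Without strand in the counting, reads on a minus-strand tRNA may come from the plus-strand precursor that runs across it.

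Sequences of a minus-strand and a plus-strand tRNA gene with enough reads to compare are given here, each on its own strand, with the bases that MT-TI shares with the opposite MT-TQ in capitals. Mature tRNAs of mitochondria end in added letters rather than a poly(A) tail, so reads in these libraries may be from precursors, which the counts cannot separate.
MT-TY, chrM:5826-5891 (-): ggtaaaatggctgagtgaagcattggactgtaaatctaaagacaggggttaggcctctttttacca
MT-TI, chrM:4263-4331 (+): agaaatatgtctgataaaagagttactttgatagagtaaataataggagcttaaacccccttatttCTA

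Grouped by annotated strand, plus-strand tRNA genes differed more than minus-strand ones in sh1362, in counts that did not use strand. The 14 plus-strand genes summed to 270 reads in sh1362, 136 in sh490 and 95 in shGFP, a ratio of shares of 1.88 (1.48 to 2.40) for sh1362 over shGFP and 2.08 (1.69 to 2.58) over sh490. The 8 minus-strand genes summed to 487 reads in sh1362, 418 in sh490 and 242 in shGFP, with ratios of 1.33 (1.14 to 1.56) and 1.22 (1.07 to 1.40). MT-TL1, the leucine tRNA between MT-RNR2 and MT-ND1, had 84 reads in sh1362, 33 in sh490 and 29 in shGFP. MT-TI, the isoleucine tRNA after MT-ND1, had 83 reads in sh1362, 21 in sh490 and 26 in shGFP. MT-TL1 and MT-TI had the largest ratios among the tRNAs with at least 20 reads in each library. Together they had 167 reads in sh1362, 54 in sh490 and 55 in shGFP. Their ratio of shares was 2.004 (1.47 to 2.77) for sh1362 over shGFP. These genes had the largest ratios in the same data, so their summed ratio may overstate the difference. The interval does not cover that choice. The sum leaves out other tRNAs beside MT-RNR2 and MT-ND2, MT-TV among them, so it does not describe position along the genome. MT-TV, the valine tRNA between the rRNA genes, had 33 reads in sh1362, 30 in sh490 and 7 in shGFP, and was the mitochondrial gene with the lowest unadjusted p in the edgeR test, 0.0774 (adjusted p 0.986). The other tRNAs had at most 24 reads in any library.

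**Figure D4:**
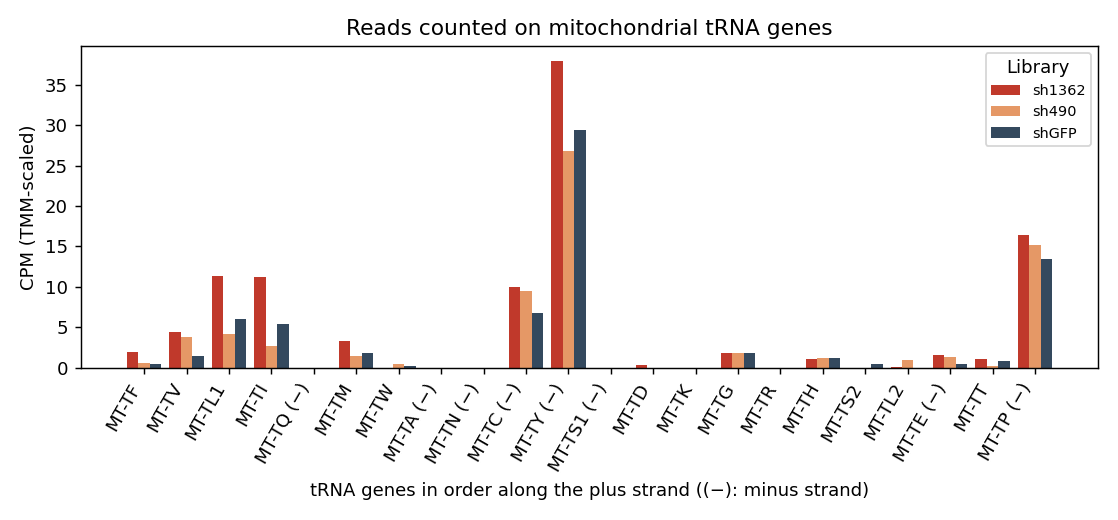
Level of the 22 mitochondrial tRNA genes (y axis, TMM-scaled CPM from 0) in gene order, 1 bar per library in the order sh1362, sh490 and shGFP. MT-TY is tallest in every library (37.9 CPM in sh1362, 26.9 CPM in sh490 and 29.4 CPM in shGFP), and MT-TL1 and MT-TI are the genes where the sh1362 bar stands farthest above both others by ratio among those with at least 20 reads in each.

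Nuclear copies of mitochondrial DNA can take reads that belong to these genes. The tables held 404 rows named as such copies, of which 68 had any read and 3 had at least 20 in some library. MTATP6P1, MTND2P28 and MTCO1P12 lie in 1 block on chromosome 1 that matches the mitochondrial genome from MT-ND1 to MT-CO3. MTATP6P1 (98.5% identical to MT-ATP6) had 4230 reads in sh1362, 3956 in sh490 and 2503 in shGFP, which was 13.3%, 14.2% and 14.2% of the MT-ATP6 reads of the same library. MTND2P28 (98.4% identical to MT-ND2) had 861 reads in sh1362, 567 in sh490 and 407 in shGFP, or 3.84%, 3.83% and 4.26% of the MT-ND2 reads. MTCO1P12 had 184 reads in sh1362, 144 in sh490 and 83 in shGFP. These proportions to the mitochondrial gene were close in all 3 libraries, while MTATP8P1, beside MTATP6P1, had 4, 2 and 4 reads in sh1362, sh490 and shGFP. Reads that matched both places equally were left out, and of the windows of 75 bases in MT-CO1 36.6% were identical in the copy, against 28.0% in MT-ATP6 and 0 in MT-ATP8. Levels of the mitochondrial genes in the block, MT-ND1 to MT-CO3, may therefore be understated, and their folds assume that the lost part was alike in each library.

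The nuclear genes that make and keep mitochondrial RNA were set beside these values, and as a group they lay near 0. Genes with a mean of at least 5 CPM are called measured, and the values of single genes in sh1362 and sh490 are log2 folds over shGFP. Over 35 measured genes of 39 listed for mitochondrial RNA synthesis, processing and stability, the median log2 fold was 0.065 for sh1362 over shGFP, 0.13 for sh1362 over sh490 and -0.011 for sh490 over shGFP. At least 1.2-fold higher in sh1362 than in shGFP were 8 of the 35 and at least 1.2-fold lower were 5, beside 28.2% and 30.2% of all genes. In sh490, 5 were higher and 6 lower, beside 22.6% and 21.3%. edgeR called 0 of the 35 (lowest adjusted p 0.986), and none of the other mitochondrial lists below held a called gene.

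For synthesis, POLRMT, the mitochondrial RNA polymerase, had 157 reads in sh1362, 183 in sh490 and 126 in shGFP, with log2 folds of -0.29 in sh1362 and -0.17 in sh490. TFAM, which packs the genome and helps the polymerase to start, had 1036 reads in sh1362, 896 in sh490 and 553 in shGFP, with 0.29 in sh1362 and -0.017 in sh490. TFB2M, the initiation factor that opens the promoter, had 308 reads in sh1362, 277 in sh490 and 196 in shGFP, with 0.041 in sh1362 and -0.21 in sh490. TEFM, the elongation factor that keeps the polymerase on the template, had 80 reads in sh1362, 58 in sh490 and 34 in shGFP, with 0.60 in sh1362 and 0.055 in sh490. These few genes thus lay on both sides of 0 in sh1362, and TEFM, the highest, rested on under 100 reads a library. TFB1M, which methylates the 12S rRNA, had 111 reads in sh1362, 71 in sh490 and 75 in shGFP, with -0.044 in sh1362 and -0.77 in sh490. The MTERF family, named for a terminator near the rRNA genes, had folds of 0.11 in sh1362 and 0.064 in sh490 for MTERF1, -0.13 in sh1362 and -0.14 in sh490 for MTERF2, 0.099 in sh1362 and 0.034 in sh490 for MTERF3 and 0.51 in sh1362 and 0.55 in sh490 for MTERF4.

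For stability and decay, LRPPRC, which binds mitochondrial mRNAs and keeps them from decay, had 3913 reads in sh1362, 3599 in sh490 and 2182 in shGFP, with 0.23 in sh1362 and 0.0091 in sh490. Its partner SLIRP had 482 reads in sh1362, 471 in sh490 and 281 in shGFP, with 0.17 in sh1362 and 0.032 in sh490. MTPAP, the mitochondrial poly(A) polymerase, had 379 reads in sh1362, 328 in sh490 and 259 in shGFP, with -0.061 in sh1362 and -0.37 in sh490. PNPT1, an exonuclease, had 926 reads in sh1362, 895 in sh490 and 607 in shGFP, with -0.0012 in sh1362 and -0.15 in sh490, and its helicase partner SUPV3L1 had 0.29 in sh1362 and -0.015 in sh490. PDE12, which removes poly(A), had -0.0067 in sh1362 and 0.16 in sh490, and REXO2, which degrades short RNA fragments, had 0.28 in sh1362 and 0.40 in sh490. Of the 7 genes 2 were at least 1.2-fold higher in sh1362 than in shGFP and 0 were lower, beside 28.2% and 30.2% of all genes, so the count of higher genes was near the background.

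For processing, HSD17B10, a subunit of the enzyme that cuts the 5′ end of tRNAs, had 0.28 in sh1362 and 0.33 in sh490, and GRSF1, an RNA-granule protein that binds G-rich mitochondrial RNA, had 0.56 in sh1362 and 0.18 in sh490. On the lower side, MRM3, which methylates the 16S rRNA, had -0.38 in sh1362 and -0.96 in sh490, and MTO1, a tRNA-modifying enzyme, had -0.28 in sh1362 and -0.42 in sh490. The 73 measured mitoribosomal protein genes of 78 had medians of 0.094 for sh1362 and -0.049 for sh490 over shGFP, with 17 at least 1.2-fold higher and 7 lower in sh1362 than in shGFP, beside 28.2% and 30.2% of all genes. MRPL58 stood highest with 1.197 in sh1362 and 1.16 in sh490, followed by MRPL51 with 0.44 in sh1362 and 0.46 in sh490, and MRPS28 with -0.51 in sh1362 and -1.15 in sh490 and MRPL23 with -0.41 in sh1362 and -0.39 in sh490 were lowest by the smaller of their folds. For upkeep of the genome, the 12 measured genes of 13 had medians of -0.037 and -0.059, with 1 at least 1.2-fold higher and 5 lower in sh1362 than in shGFP, beside the same 28.2% and 30.2%. TWNK, the replicative helicase, had 0.38 in sh1362 and 0.31 in sh490, TOP1MT 0.19 in sh1362 and 0.18 in sh490, LIG3, the DNA ligase, -0.76 in sh1362 and -0.42 in sh490 and MGME1, an exonuclease, -0.42 in sh1362 and -0.40 in sh490.

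The SD over genes of the log2 fold of sh1362 over sh490 was 0.72 for the biogenesis regulators, 0.49 for the chaperones and proteases, 0.45 for the translation factors and 0.25 for the 35 RNA genes, beside 0.51 over all genes. Translation factors had medians of 0.089 in sh1362 and -0.065 in sh490 over shGFP (11 of 12 measured), with TACO1, a translational activator of MT-CO1, at 0.47 in sh1362 and 0.49 in sh490, MTRF1L at 0.21 in sh1362 and 0.37 in sh490, GFM2 at -0.27 in sh1362 and -0.77 in sh490 and MTIF3 at -0.16 in sh1362 and -0.065 in sh490. The 6 biogenesis regulators had medians of 0.071 and -0.035, with PPARGC1B, a coactivator, at 0.38 in sh1362 and 0.0033 in sh490 and PPRC1 at -0.042 in sh1362 and -0.26 in sh490. The 7 chaperones and proteases had medians of 0.0029 and 0.016, with CLPP at 0.13 in sh1362 and 0.36 in sh490, TRAP1 at 0.0029 in sh1362 and 0.016 in sh490 and HSPA9, the import chaperone, at -1.21 in sh1362 and -0.36 in sh490. Chosen after their values were seen, PPARGC1A, the main coactivator of mitochondrial biogenesis, had 881 reads in sh1362, 469 in sh490 and 348 in shGFP, and TUFM, the mitochondrial elongation factor Tu, had 748 reads in sh1362, 1724 in sh490 and 988 in shGFP. The folds were 0.73 in sh1362 and -0.28 in sh490 for PPARGC1A and -1.01 in sh1362 and 0.090 in sh490 for TUFM. The counting interval in sh490 lay below 0 for PPARGC1A (-0.49 to -0.078) and included 0 for TUFM (-0.023 to 0.20).

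**Figure D5:**
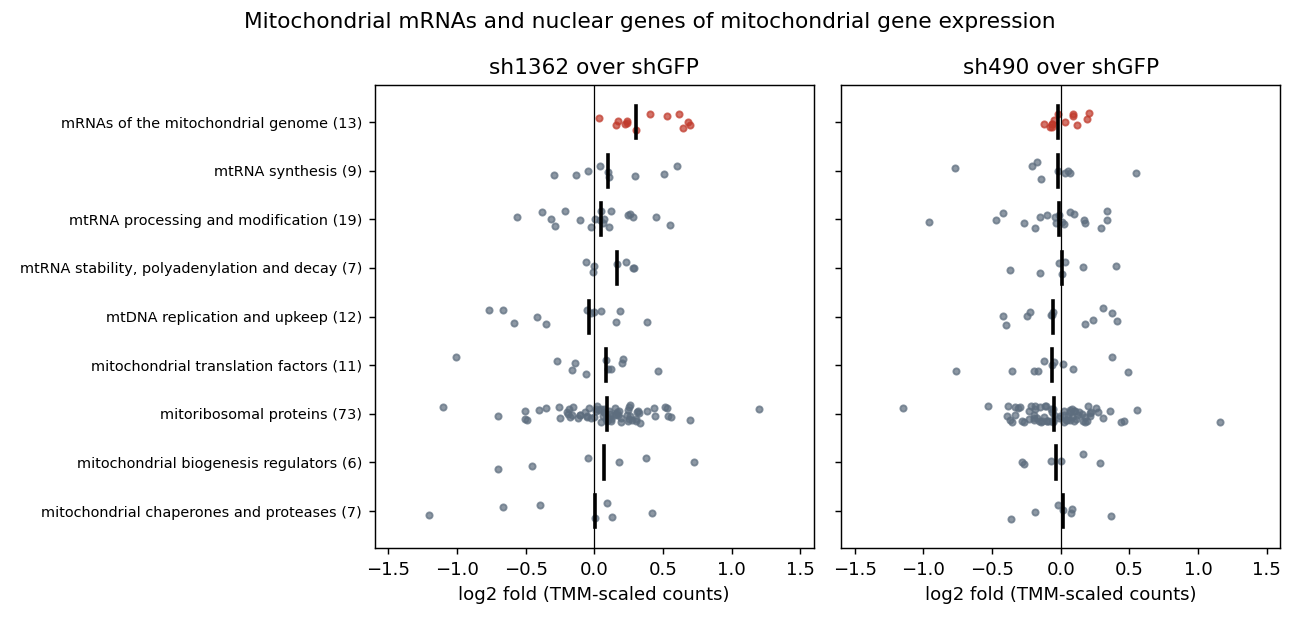
Log2 folds over shGFP (x axis) in sh1362 (left) and sh490 (right) for the 13 mitochondrial mRNAs and for lists of nuclear genes of mitochondrial gene expression (rows, with the number of genes), 1 point per gene and a bar at the median. The mRNA points all lie above 0 in sh1362 with a median of 0.31, while the medians of the nuclear lists lie between -0.037 and 0.17.

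As signs of how the RNA was sampled, 9 transcripts that lack a poly(A) tail or stay in the nucleus were also read. They summed to 1880 CPM in sh1362, 1866 CPM in sh490 and 1968 CPM in shGFP, and 5 of them were at 0 in every library. Of the 4 that had reads, NEAT1, a nuclear RNA of which 1 form is polyadenylated, was above shGFP, with log2 folds of 0.67 in sh1362 and 0.27 in sh490. The other 3 were below shGFP in both libraries, farther in sh1362. MALAT1, another nuclear RNA, had -0.49 in sh1362 and -0.22 in sh490. RN7SL1, the RNA of the signal recognition particle, had 48 reads in sh1362, 68 in sh490 and 68 in shGFP, with -1.08 in sh1362 (-1.68 to -0.56) and -0.69 in sh490 (-1.22 to -0.21), and near-identical copies make its count uncertain. KCNQ1OT1, a nuclear RNA antisense to KCNQ1, had 63 reads in sh1362, 92 in sh490 and 130 in shGFP, with -1.62 in sh1362 (-2.11 to -1.21) and -1.19 in sh490 (-1.61 to -0.82), and without strand its reads cannot be told apart from those of KCNQ1. edgeR called none of the 4, with an adjusted p of 0.986 for each, and an unadjusted p of 0.00639 for KCNQ1OT1. At least 2-fold lower in sh1362 than in shGFP were 2 of the 4, beside 6.0% of all genes. NEAT1 and MALAT1 made up nearly all of the summed level, so the sum does not show the folds of the other genes. The part of these transcripts in the mitochondrial share was not tested.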

How the data were processed

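RNA sequencing of 3 NCI-H209 libraries was analysed, 1 per hairpin. The authors deposited raw counts per gene, which per the file headers come from featureCounts 1.6.0 with exons of GENCODE version 32. Neither strand nor read pairs were set in its command, so strands were added together and reads matching several places or genes were dropped. Alignment was with STAR 2.6.1c to GRCh38 after FastQC 0.11.8, per the submitters' processing notes. The gene length column is another deposited value of the authors and was used per kilobase.

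From these counts, shares were computed of all counted reads, and log2 folds of single libraries from TMM-scaled CPM with a prior count of 2. edgeR 4.0.16 (quasi-likelihood, filterByExpr, Benjamini-Hochberg, two-sided) compared both YES1 hairpins with shGFP, on R 4.3.3. DESeq2 1.42.0 and limma 3.58.1 were alternatives. P-values rest on the spread between sh1362 and sh490, which edgeR pools over many genes. They therefore do not measure the spread between the hairpins for the gene tested alone. The 2 hairpins are different and may differ for other reasons than chance. Sequences came from GENCODE version 29 transcripts with the same coordinates. All mRNAs and rRNAs were named, and tRNAs with at least 10 reads in each library or at least 5% of tRNA reads in any. In nuclear lists all synthesis and stability genes were named, and otherwise the 2 highest and 2 lowest by the smaller of 2 folds of like sign. The genes and lists were chosen with earlier results of these data known. Some markers of the cell type lists are not reported here.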

Additional observations from a re-analysis of the deposited data

How the results depend on the processing

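The share of reads on mitochondrial genes was higher in sh1362 under every alternative run. As a log2 ratio of shares, sh1362 over shGFP was 0.51, and 0.54 relative to reads outside chromosome M, 0.46 each over the 13 mRNAs, without the rRNAs and without MT-RNR2. For sh1362 over sh490 it was 0.50, and in the same order 0.54, 0.41, 0.41 and 0.41. It was 0.56 relative to the TMM-scaled total of protein-coding nuclear reads and 0.51 without the 20 most abundant nuclear genes. For sh490 over shGFP it was 0.0075 and took either sign. It was -0.047 relative to the TMM-scaled total of protein-coding nuclear reads and -0.0018 without the 20 most abundant nuclear genes. Relative to unscaled reads outside chromosome M it was 0.0079. The other values were 0.053 over the mRNAs, 0.053 without the rRNAs and 0.047 without MT-RNR2. The cause was not tested.

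The median over the mRNAs, replaced by the mean, was 0.38 for sh1362 over shGFP, 0.36 for sh1362 over sh490 and 0.020 for sh490 over shGFP. Scaled by library totals it was 0.30 for sh1362 over sh490 and 0.023 for sh490 over shGFP, so the sign in sh490 was not settled. Calls in all genes were 4, against 58 with no filter on low counts (27622 genes tested) and 2 with limma-voom, and 0 among mitochondrial genes in each. Of 180 values of single genes 160 moved by less than their counting interval and 20 by more. All of those 20 came from scaling by library totals, in the comparisons that involve sh490. No paired analysis was possible because shGFP is 1 library and the labels carry no replicate numbers. Leaving out sh1362 or sh490 leaves 1 library against 1 and no residual degree of freedom, so that test was not run and the folds of single hairpins stand in its place. Depth limits the tRNA genes: for MT-TG, with 13 reads in sh1362 and 9 in shGFP, the interval of the log2 fold ran from -1.42 to 1.33.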
